A study of Arabidopsis thaliana with 12 samples.

Results

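Brassinosteroids are growth-promoting steroid hormones of plants, and 10 genes of their synthesis, breakdown and signalling were followed across the binding maps of 6 tagged proteins in Arabidopsis thaliana seedlings. The genes were DWF4 (AT3G50660), CPD (AT5G05690), BAS1 (AT2G26710), BRI1 (AT4G39400), BKI1 (AT5G42750), BIN2 (AT4G18710), BZR1 (AT1G75080), BES1 (AT1G19350), BEH1 (AT3G50750) and BEH2 (AT4G36780). A chromatin immunoprecipitation (ChIP-seq) peak belonged to one of them when its summit, the base of highest signal, lay in the gene or within 2000 bp of it and no other protein-coding gene was nearer. By this rule 64 of the 38038 nuclear peaks of the series, and 10 of 27444 nuclear protein-coding genes, were described. The genes were chosen by their place in the pathway and not by the strength of their peaks, with earlier results of these data known.

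The hormone is made by cytochrome P450 enzymes, among them DWF4 and CPD, and is inactivated by BAS1. At the cell surface it binds the receptor kinase BRI1, which the inhibitor BKI1 holds back in the absence of hormone. Signalling switches off the kinase BIN2, and the transcription factors BZR1, BES1 and their homologues BEH1 and BEH2 then act on growth genes and lower the expression of DWF4 and CPD. BZR1 and BES1 are also known to recruit the co-repressor TPL.

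All plants were of the Ler ecotype, 10 days old, and were sampled as whole seedlings. Each line expressed 1 protein from its own locus with 2xYPet-3xHA at its C-terminus, and an antibody against GFP, which recognises YPet, was used for the precipitation. The lines were tagged in REV, PHB, PHV, ICU4 or ATHB8, together the HD-ZIPIII family of homeodomain transcription factors that act in leaf polarity, shoot meristems and vascular tissue, or in TPL (TOPLESS). Each line had 1 ChIP sample and 1 input sample, and the sources used here do not say whether an untagged copy of the gene was also present. Each protein had 1 peak list, so replicate error cannot be given for any value, no test between lists was possible, and a lack of a peak is not a lack of binding. Whole seedlings mix all tissues, so a peak does not say in which cells the protein was bound. The lists held 2790 (PHB) to 12785 (TPL) nuclear peaks. Summits within 2000 bp of a gene made up 40.4% of the REV list and 29.4% of the ATHB8 list, but 80.5% to 94.2% of the others. Read depth is unknown. Fold enrichment, the authors' ratio of the signal at a peak to the local background, and −log10 q, their adjusted significance, are properties of a peak and are read only within its list.

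Every one of the 10 genes had an ICU4 peak and a TPL peak. Over all protein-coding genes, 22.3% had an ICU4 peak, 34% a TPL peak and 16.5% both. A PHB peak was found at 8 of the 10 genes, where 7.29% of all genes had one, and only BKI1 and BIN2 lacked it. Since all 10 genes had ICU4 and TPL peaks, the 8 with a PHB peak necessarily held all 3, as did 5.52% of all genes. This adds nothing to the PHB count. Of the 2001 genes with a PHB peak, 1516 also had ICU4 and TPL peaks. A PHV peak was found at DWF4, CPD, BAS1, BRI1 and BEH2, 5 of the 10, against 7.06% of all genes. A REV peak was found at CPD, BAS1, BRI1 and BEH1, 4 of the 10, against 5.86% of all genes. The ATHB8 list had a single peak, at BRI1, and a count of 1 in 10, beside 3.52% of all genes, is too small to read. Peaks of at least 3 HD-ZIPIII proteins occurred at 6 of the 10 genes, and at 5.38% of all genes.

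Other genes than those of a hormone pathway can also have shares well above those of all genes. Peaks were counted at 19 genes whose symbols mark them as light-harvesting or RuBisCO small-subunit genes, which are strongly transcribed in seedlings. For TPL 16 (84.2%) had a peak, for ICU4 14 (73.7%) and for PHB 10 (52.6%), shares below those of the 10 genes. For PHV 11 (57.9%) had one, for REV 9 (47.4%) and for ATHB8 8 (42.1%), shares above those of the 10 genes. The part of transcription in the brassinosteroid peaks was not tested, and untagged plants were not among the lists analysed here.

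**Figure D1:**
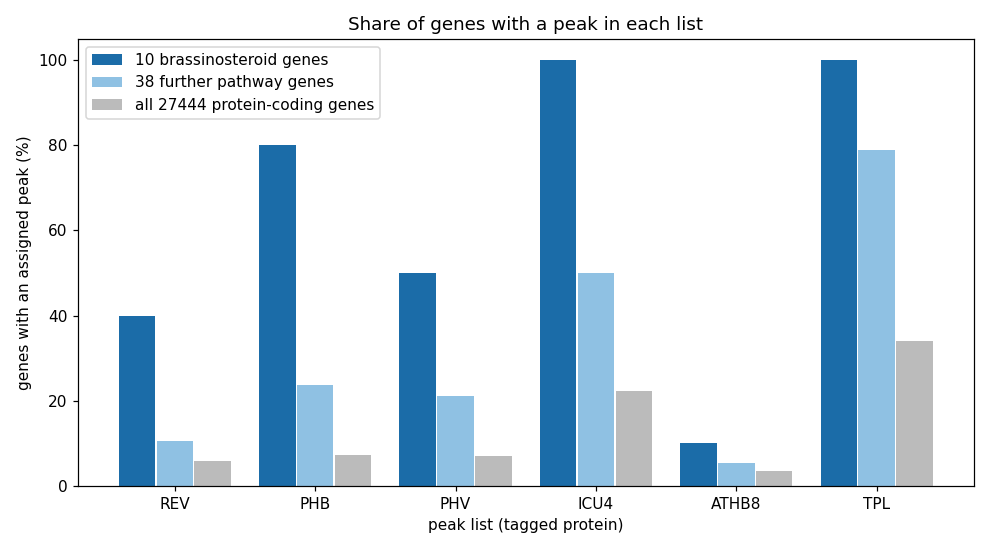
Bars give the percentage of genes (y axis) with an assigned peak in each of the 6 lists (x axis) for the 10 brassinosteroid genes, 38 further genes of the pathway and all 27444 nuclear protein-coding genes. The 10 genes reach 100% in the ICU4 and TPL lists and 10% in the ATHB8 list. In each list the bar of the 10 genes is above the bar of all genes, but their ATHB8 bar is 1 gene and is not read.

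The peaks at the 10 genes ran from the top to the bottom of their lists. To place a gene in a list, its strongest peak was set against the strongest peak of each gene in that list. The median place of the genes with a peak was above 92.5% of the genes of the TPL list, 84.9% of the ICU4, 74.8% of the PHV, 72.5% of the REV and 59.7% of the PHB list. Among the upper 10% of genes were 6 of the 10 in the TPL list, 5 of 10 in the ICU4 list, 2 of 8 in the PHB list, and 1 gene each of the 5 in the PHV and the 4 in the REV list. BRI1 was in the upper 10% of 5 lists and BAS1 of 3, one of which, that of PHB, it left with a place of 88.3% when ranked by −log10 q. The 5 high places of BRI1 came from a site 1635 to 1709 bp outside the gene, which a limit of 1000 bp removes. At the other end of the lists stood BZR1, whose ICU4 peak was above 1.11% of the genes of that list.

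**Figure D2:**
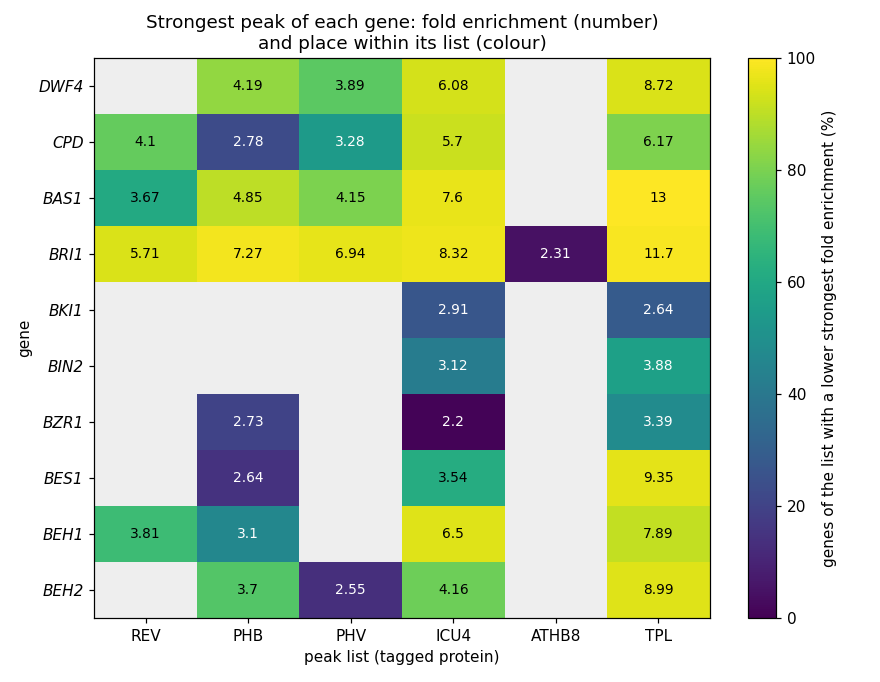
Rows are the 10 genes and columns the 6 peak lists; the number is the fold enrichment of the gene's strongest peak, the colour the percentage of genes with a peak in that list whose strongest peak was lower, and pale grey marks no peak. BRI1 and BAS1 are high in most columns, BKI1 and BZR1 are below the middle of each list in which they have a peak, BIN2 is at 42.1% in the ICU4 and 56.7% in the TPL column, and the single ATHB8 value, 2.31 at BRI1, is among the lowest of its list.

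Peak by peak, 49 of the 64 peaks at the 10 genes were wider, and 39 had a higher fold enrichment, than the median of the peaks near any gene in their list. The 20 TPL peaks ran from 296 to 2666 bp, with a median of 989 bp, against 565 bp for TPL peaks near any gene. The widest was the TPL peak at BEH1, which covered the whole gene. The median width was 281.5 bp for the 16 ICU4 peaks, against 221 bp, 268 bp for the 12 PHB peaks, against 185 bp, 209 bp for the 4 REV peaks, against 106.5 bp, and 207 bp for the 11 PHV peaks, against 189 bp. In fold enrichment the TPL peaks had a median of 4.94, against 3.18 near any gene, the REV peaks 3.96, against 3.32, and the ICU4 peaks 3.57, against 3.17. The PHV peaks, with 3.28 against 3.14, and the PHB peaks, with 3.08 against 3.09, stood near the middle of their lists. None of these differences was tested. Of the 64 summits, 37 (57.8%) lay inside the gene. By list it was 11 of 20 for TPL, against 52.9% of peaks near any gene, and 7 of 11 for PHV, against 61.9%. For ICU4 it was 10 of 16, against 72.2%, for PHB 7 of 12, against 67.8%, and for REV 2 of 4, against 67.4%. The 1 ATHB8 summit lay outside, where 46.1% of that list lay inside. These differences were not tested.

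DWF4 encodes a steroid hydroxylase held to be rate-limiting for brassinosteroid synthesis, and it had 2 separate sites on chromosome 3. At the site outside the gene, on its side of higher coordinates, TPL reached a fold enrichment of 8.72, ICU4 6.08, PHB 4.19 and PHV 3.89. The 4 summits there lay between 18817811 and 18817849, from 406 to 444 bp beyond the gene, and the PHV peak spanned chr3:18817728-18817920. At the site inside the gene TPL reached 5.997, ICU4 3.73, PHB 2.55 and PHV 1.91. Each of the 4 lists thus gave the outer site the higher fold enrichment. The inner PHV peak was close to the end of its list, ranking 2855 of 2872 by fold enrichment, while the outer one ranked 612. Neither site had a REV or ATHB8 peak. The gene table used has no strand, so whether an outer site lies before or behind a gene is not stated for any gene here.

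CPD, another cytochrome P450 gene of hormone synthesis, had its main site inside the gene on chromosome 5. There TPL reached a fold enrichment of 6.17, ICU4 5.70, REV 4.10, PHV 3.28 and PHB 2.78. The HD-ZIPIII summits spread over 90 bp, between 1706632 and 1706722, and the TPL summit, at 1706666, fell among them. The TPL peak, chr5:1704873-1706963, also covered another, weaker site with a PHV peak of 2.82 and an ICU4 peak of 2.98. CPD was high in the ICU4 list, above 91.9% of its genes, but above only 22.9% of the genes of the PHB list. By −log10 q its place in the PHB list was 48.9%. A further TPL peak of 3.86, with its summit 1427 bp beyond the gene, overlapped no HD-ZIPIII peak of CPD.

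BAS1, whose product hydroxylates and so inactivates brassinosteroids, had 10 peaks in 5 lists, at the edge of the gene and inside it, on chromosome 2. The site at the edge of lower coordinates held peaks of PHB at 4.84, PHV at 3.58, ICU4 at 3.60 and TPL at 12.98, with all summits outside the gene by 44 to 96 bp. The site inside the gene held peaks of REV at 3.67, PHB at 4.85, PHV at 4.15, ICU4 at 7.60 and TPL at 12.38. The ICU4 enrichment thus differed between the sites, ranking 209 of 8964 peaks inside and 2649 at the edge, while the PHB values were nearly equal. Both TPL peaks were among the strongest of the series' largest list, at ranks 32 and 55 of 12785. REV had a peak only at the inner site, chr2:11382621-11382750. A further TPL peak between them, of 1.84, had no HD-ZIPIII peak.

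BRI1, the hormone's main receptor, was the 1 gene of the 10 with peaks of all 6 proteins. These met at a site on chromosome 4 on the side of lower coordinates, where TPL reached a fold enrichment of 11.7, ICU4 8.32, PHB 7.27, PHV 6.94, REV 5.71 and ATHB8 2.31. The HD-ZIPIII summits spanned 85 bp, from 18322737 (ATHB8) to 18322822 (PHV), and the TPL summit, at 18322748, lay between them. In rank by fold enrichment the PHB peak was 42 of 2790, the PHV peak 77 of 2872, the TPL peak 93 of 12785, the ICU4 peak 158 of 8964 and the REV peak 378 of 5814. In −log10 q they reached 285.5 (TPL), 39.7 (ICU4), 35.1 (PHV), 28.9 (PHB) and 12.2 (REV). The ATHB8 peak, chr4:18322708-18322798, was in contrast number 4524 of 4813, with a −log10 q of 1.43, close to the lowest in the list, 1.31. BRI1 was the gene nearest to this site, at 1635 to 1720 bp. On the other side the next protein-coding gene, NST-K1, which encodes a nucleotide sugar transporter, was 4511 bp away. The assignment to BRI1 therefore rests on the 2000 bp limit: at 1000 bp the whole site is lost. The peaks within BRI1 were weaker, with a PHB peak of 2.38, PHV peaks of 3.01 and 3.32, and TPL peaks of 3.45 and 1.998. None of the inner peaks was shared between PHB and PHV.

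BKI1, the membrane-bound inhibitor of the receptor, had an ICU4 peak of 2.91 and a TPL peak of 2.64, both inside the gene. Their summits, at 17143111 and 17143107 on chromosome 5, were 4 bp apart, although both peaks were weak. They were above 26.9% of the genes of the ICU4 list and 28.8% of those of the TPL list. BIN2, the kinase that phosphorylates BZR1 and BES1, had an ICU4 peak of 3.12 inside the gene, within a TPL peak of 3.88. The summits were 60 bp apart, at 10296404 for ICU4 and 10296344 for TPL on chromosome 4. Another TPL peak in BIN2 reached 2.23. Neither gene had a peak of REV, PHB, PHV or ATHB8, lists that each reach only 3.52% to 7.29% of all genes, so nothing is read from their lack at 2 genes.

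**Figure D3:**
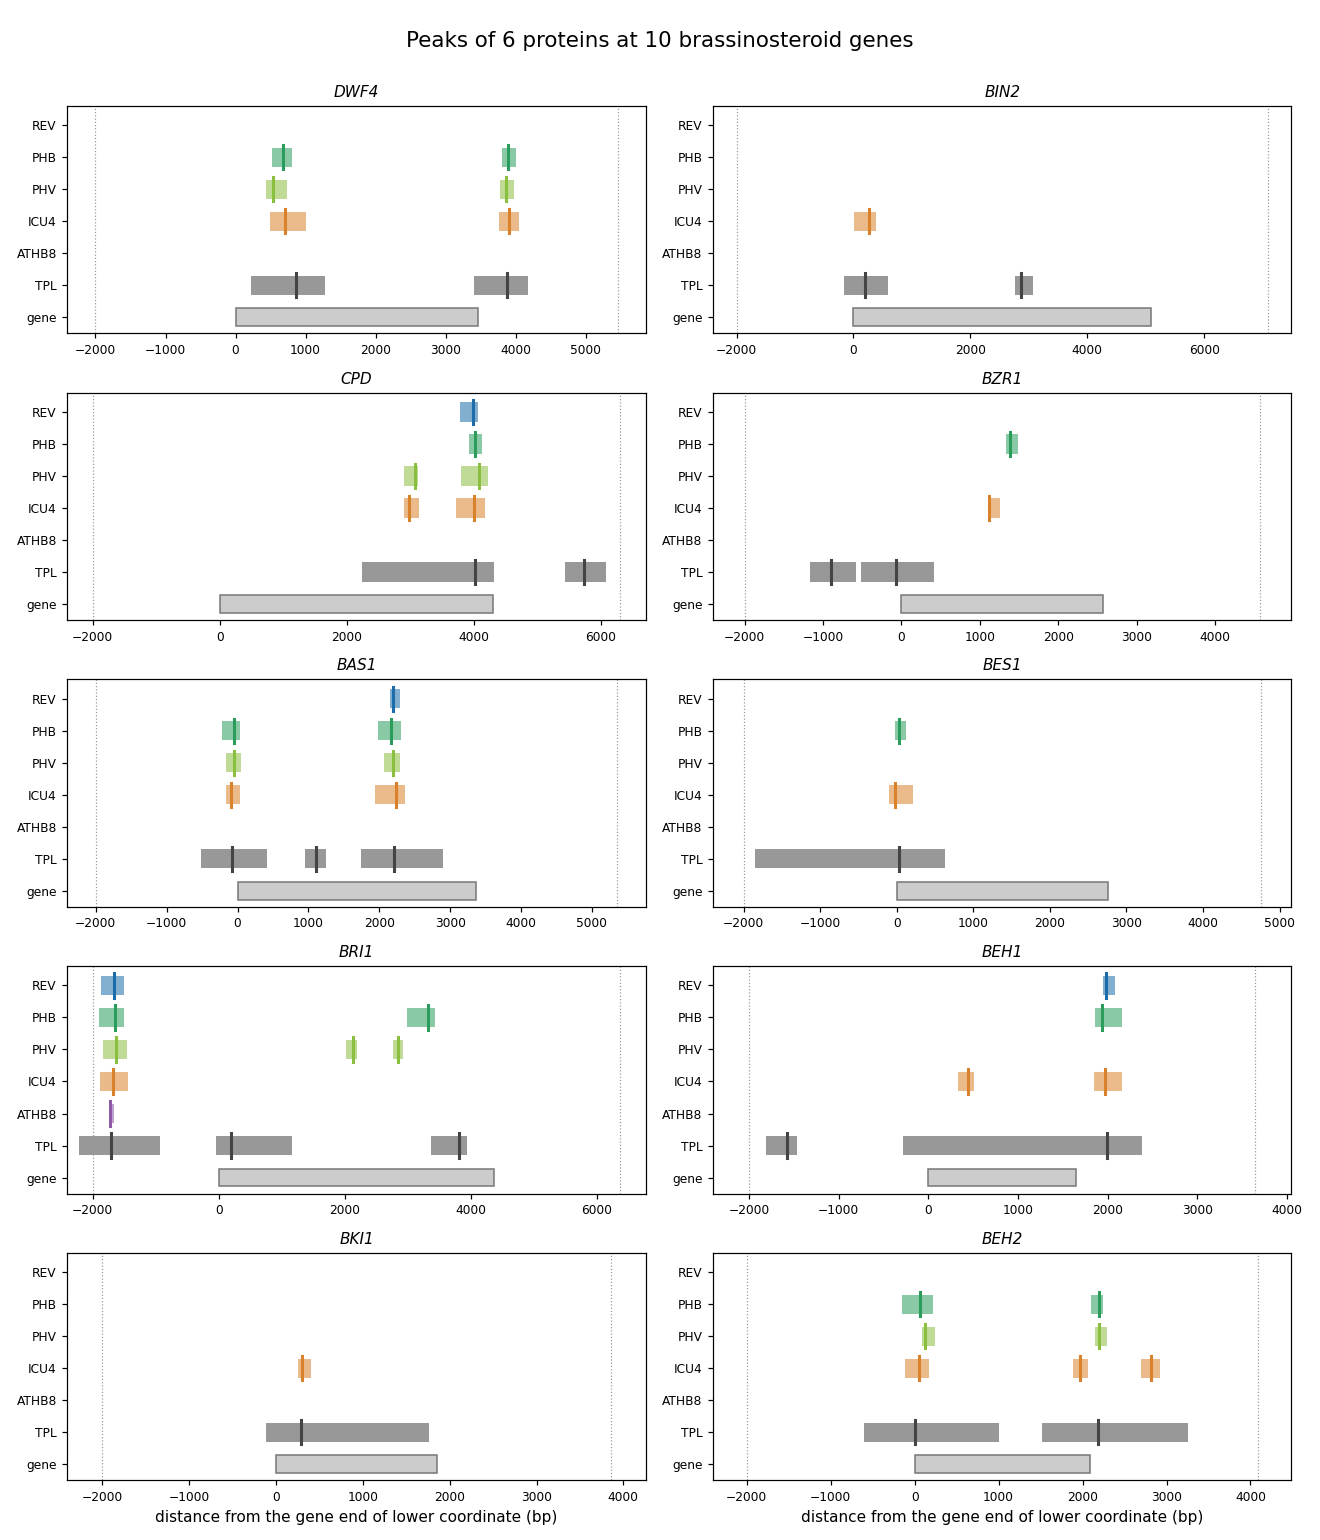
Each panel shows 1 gene (grey bar) with the peaks of the 6 lists above it (coloured bars, with a line at each summit), against the distance in bp from the gene end of lower coordinate; dotted lines mark 2000 bp to each side. The HD-ZIPIII peaks of DWF4, BAS1, CPD and BEH2 stack at 2 positions each, with further single ICU4 peaks at BEH2, those of BRI1 mainly outside the gene, and the wide TPL peaks cover most stacks but not the ICU4 and PHB peaks of BZR1.

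BZR1 and BES1, the main transcription factors of the pathway, each had PHB, ICU4 and TPL peaks. At BZR1 the fold enrichment of the PHB peak was 2.73, of the ICU4 peak 2.20, and of the TPL peaks 2.92 and 3.39. The PHB peak, chr1:28186833-28186987, and the ICU4 peak, chr1:28186620-28186763, did not touch each other or a TPL peak. Both TPL summits lay outside the gene, by 75 and 898 bp. At BES1, where the peaks did overlap, TPL reached 9.35, ICU4 3.54 and PHB 2.64. The summits were at 6688497 for PHB, 6688438 for ICU4 and 6688492 for TPL on chromosome 1, at the edge of the gene. The TPL peak was above 96.0% of the genes of its list and the PHB peak above 14.5%. BZR1 stood lower, above 48.1% of the genes of the TPL list, and in the ICU4 list it was above 1.11% of genes where BES1 was above 61.8%.

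BEH1 and BEH2, homologues of BZR1 and BES1, were held by 3 HD-ZIPIII proteins each. At BEH1, REV at 3.81, PHB at 3.10, ICU4 at 6.50 and TPL at 7.89 met outside the gene on chromosome 3, with summits between 18863690 and 18863739. The ICU4 peak was above 94.9% of the genes of its list. BEH1 also had a weak ICU4 peak of 2.66 inside the gene, covered by the same TPL peak, chr3:18861467-18864132, and a separate TPL peak of 1.92. BEH2 on chromosome 4 had PHB, PHV and TPL peaks at each end of the gene. At the end of lower coordinates TPL reached 8.99, PHB 3.70, PHV 2.55 and ICU4 1.95. At the other end TPL reached 7.02, PHB 3.07 and PHV 2.28. The summits there, at 17334456 for TPL, 17334460 for PHB and 17334462 for PHV, were within 6 bp of each other. There ICU4 had flanking peaks of 3.10 and 4.16 in place of a peak at this summit. The weakest BEH2 peak illustrates that fold enrichment is not the height of a peak: with a pileup of 27 the ICU4 value was 1.95, while at BIN2 a pileup of 26 gave 3.12.

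Merging the overlapping peaks of the 5 HD-ZIPIII lists gave 21 sites at the 10 genes. Of these, 10 were held by 1 protein, 3 by 2, 5 by 3, 2 by 4 and 1 by all 5. Among the 10693 such regions near any gene, 71.5% were held by 1 protein, 14.6% by 2, 7.29% by 3, 4.58% by 4 and 1.96% by 5. The sites of 4 proteins, inside BAS1 and CPD, both held REV, PHB, PHV and ICU4 without ATHB8. At the 11 sites of at least 2 proteins, the strongest summits of the different proteins lay 2 to 174 bp apart, with a median of 63 bp. Merged peaks share bases, so their summits lie close together by construction. The same distance for regions near any gene is not given here.

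A TPL peak overlapped 40 of the 44 HD-ZIPIII peaks at these genes, or 90.9% (Wilson 95% interval 78.8 to 96.4, counting error only, since peaks at a site are not independent). By list, TPL overlapped 4 of 4 REV peaks, 11 of 12 PHB, 9 of 11 PHV, 15 of 16 ICU4 peaks and the 1 ATHB8 peak. Among all peaks near genes the share with TPL was 81.5% in the PHB list (79.9 to 83.0), 77.9% in the PHV list (76.2 to 79.6), 71.2% in the ICU4 list (70.3 to 72.2), 70.1% in the REV list (68.2 to 71.9) and 30.9% in the ATHB8 list (28.6 to 33.4). The 4 peaks without TPL were those of PHB and ICU4 at BZR1 and of PHV inside BRI1. By sites, TPL was present at 11 of the 11 sites of 2 or more proteins and at 6 of the 10 sites of 1 protein. Over all regions near genes the share with TPL was 52.4% for 1 protein, 75.5% for 2, 83.3% for 3, 94.7% for 4 and 97.1% for 5. TPL peaks are wide, with a median of 564 bp, so an overlap does not place the proteins at the same bases. With a stricter match, summits within 100 bp, 30 of the 44 peaks (68.2%) had a TPL peak, against 5916 of the 16882 HD-ZIPIII peaks near any gene (35.0%). By list these shares were 9 of 12 for PHB, against 42.8% near any gene, 6 of 11 for PHV, against 44.6%, 10 of 16 for ICU4, against 36.4%, and 4 of 4 for REV, against 27.9%. The differences were not tested, since peaks of a site are not independent.

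**Figure D4:**
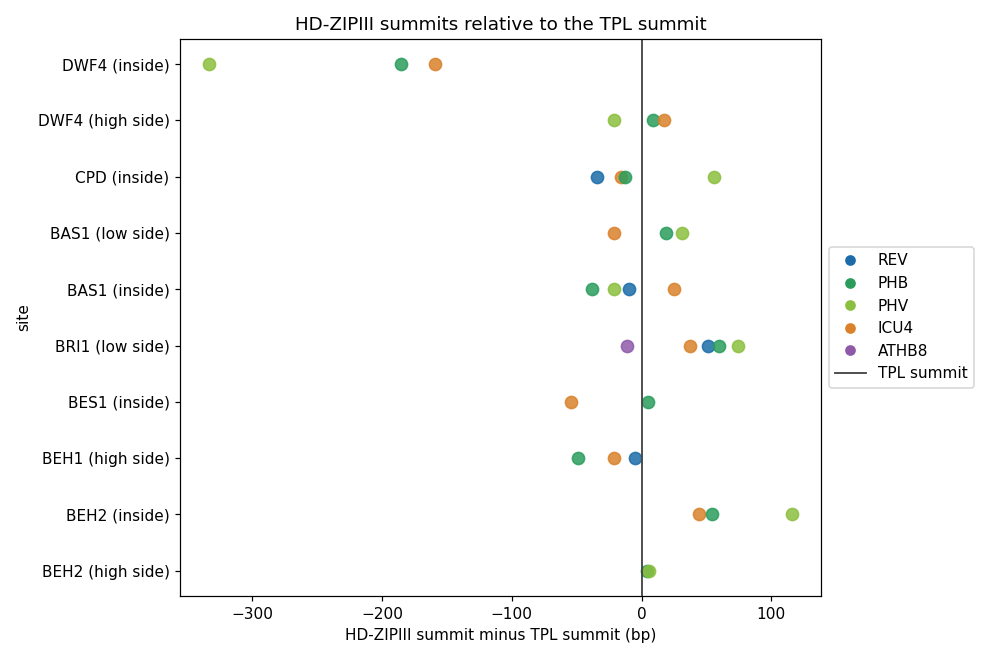
Points give the position of each HD-ZIPIII summit relative to the TPL summit (x axis, in bp) at the 10 sites of at least 2 proteins whose nearest HD-ZIPIII summit lay within 200 bp of it. At 9 of these sites the nearest summit was within 100 bp, and the exception, inside DWF4, had its nearest summit 159 bp away; the PHB point at the outer BEH2 site is hidden by the PHV point, and a weak CPD site is left out.

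In detail, 9 of the 11 sites of several proteins (81.8%) had the TPL summit within 100 bp of an HD-ZIPIII summit. Among regions of several proteins near any gene it was 1624 of 3044 (53.4%). These sets differ in make-up: all 11 sites had a TPL peak, while the regions near any gene include some without one. Of the 11 sites 3 were of 2 proteins, and of the 3044 regions 1565. The difference was not tested. The TPL summit lay between the outermost HD-ZIPIII summits at the main sites of BRI1 and CPD, at both BAS1 sites, at the outer DWF4 site and at BES1. At the BRI1 site the ATHB8 summit was the nearest, 11 bp away, and at the inner BAS1 site the REV summit, 10 bp away. The exceptions were the inner site of DWF4, at 159 bp, and the weaker CPD site, at 951 bp.

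The wider pathway was read from a list of 48 genes in 9 roles, written with earlier results known and holding the 10 above. Of its 38 other genes, a TPL peak was found at 30 (78.9%), ICU4 at 19 (50%), PHB at 9 (23.7%), PHV at 8 (21.1%), REV at 4 (10.5%) and ATHB8 at 2 (5.26%). In the lists other than ATHB8 this share was below that of the 10 genes and above that of all genes. Neither difference was tested, and the ATHB8 counts, 1 of the 10 and 2 of the 38, are too small to read. No peak in any list was found at 6 of the 38 (15.8%), and the same share of all genes is not given here.

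All 6 genes of the BZR family had PHB, ICU4 and TPL peaks, a combination held by 5.52% of all genes. BZR1, BES1, BEH1 and BEH2 were already counted above, and BEH3 (AT4G18890) and BEH4 (AT1G78700) are further homologues. At BEH3, PHV reached 6.68, PHB 4.75, ICU4 5.19 and TPL 9.32, with summits between 10352074 and 10352092 on chromosome 4, outside the gene. At BEH4, REV reached 3.04, PHB 2.94, ICU4 4.81 and TPL 9.86, with summits between 29599022 and 29599170 on chromosome 1. Of 10 synthesis genes, 8 had a TPL peak, beside 34% of all genes, 6 an ICU4 peak, beside 22.3%, and 3 a PHB peak, beside 7.29%. The genes with PHB were DWF4, CPD and ROT3. A PHV peak was found at 3 synthesis genes, beside 7.06% of all genes, a REV peak at 2, beside 5.86%, and an ATHB8 peak at 0, beside 3.52%. ROT3 (AT4G36380), a P450 gene of a late step, reached 9.29 for TPL, 5.598 for ICU4, 4.02 for PHB and 2.92 for REV.

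The BRI1 homologues BRL1 and BRL3 had a TPL peak only, of 2.39 and 1.73. SERK1 (AT1G71830), a co-receptor kinase gene, had peaks of all 6 proteins like BRI1, with TPL at 10.02, ICU4 at 6.46, PHB at 5.09, REV at 3.997, ATHB8 at 2.69 and PHV at 2.23. Its summits lay within a short stretch of chromosome 1, from 27017958 to 27017997. BAK1, the best known co-receptor gene, had an ICU4 peak of 3.12 and a TPL peak of 5.06 and no other. Of the 7 genes of cytoplasmic kinases and phosphatases, 3 (42.9%) had a TPL peak and 2 (28.6%) an ICU4 peak, shares near the 34% and 22.3% of all genes. The phosphatase gene BSL1 (AT4G03080) had weak peaks of PHB at 2.56, ATHB8 at 2.48 and TPL at 2.09, and was 1 of the 3 genes of the 48 with an ATHB8 peak. It was the 1 gene of the 7 with PHB, beside 7.29% of all genes, and the 1 with ATHB8, beside 3.52%. None had REV, beside 5.86% of all genes, or PHV, beside 7.06%, and counts this small are not read. BSU1, BSL2 and CDG1 had no peak at all. Of the 3 GSK3-like kinase genes, BIN2, BIL1 and BIL2, all had a TPL peak, BIN2 and BIL1 an ICU4 peak and none a peak of the other lists, each of which reaches at most 7.29% of all genes.

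Among 11 regulators of the growth response, 9 had a TPL peak, beside 34% of all genes, and 6 an ICU4 peak, beside 22.3%. A PHB peak was found at 4, beside 7.29% of all genes, and a PHV peak at 4, beside 7.06%. A REV peak at 1 (9.09%) was near the 5.86% of all genes, and 0 had an ATHB8 peak, beside 3.52% of all genes. The one with REV was AIF1 (AT3G05800), a helix-loop-helix protein gene that restrains growth, with TPL at 9.82, ICU4 at 6.08, PHV at 4.30, REV at 4.27 and PHB at 2.78. IBH1 (AT2G43060), another inhibitor of this class, had TPL at 4.10, ICU4 at 3.87, PHB at 3.32 and PHV at 2.78. BEE2 (AT4G36540), an early response gene that promotes growth, had TPL at 7.21, ICU4 at 2.93, PHB at 2.85 and PHV at 2.77. AIF1, IBH1 and BEE2 were the regulators in at least 4 lists. BEE1, BEE3, HBI1, PRE1, KIDARI and MYBL2 had peaks in fewer. Peaks of at least 3 HD-ZIPIII proteins occurred at 7 of the 38 genes beyond the 10, beside 5.38% of all genes. Nothing is read from these genes about the direction of their effect on growth. CESTA and TCP1 had no peak.

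BRI1 was compared with the other genes held by all 6 proteins, 208 with BRI1 included, by the Euclidean distance between their places in the 6 lists. The closest was RKP (AT2G22010), at 11.1 percentage points, followed by SLK2 (AT5G62090) at 13.9, WES1 (AT4G27260) at 14.4, AT5G03370 at 14.8 and EXO70H7 (AT5G59730) at 17.8. RKP had the BRI1 pattern of high places in 5 lists, 96.5% to 99.97%, and a low one, 13.4%, in the ATHB8 list. All 6 places of BRI1 rest on its outer site, so at a limit of 1000 bp this pattern is lost.

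At a limit of 1000 bp, 56 of the 64 peaks were left. The 8 lost were the 6 of the outer BRI1 site, among them the single ATHB8 peak, and 1 TPL peak each of CPD and BEH1. The farthest peak kept was that of ATHB8 at BRI1, at 1720 bp with a fold enrichment of 2.31. The nearest left out was a TPL peak of 2.65 at 2216 bp from DWF4, followed by TPL peaks at 2251 bp from BEH1, with 5.17, and at 2874 bp from BRI1, with 7.48.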

How the data were processed

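ChIP-seq peak lists of 6 immunoprecipitations were used, 1 for each tagged protein, and no file of the 6 inputs was used here. Reads were aligned with Bowtie2 and peaks called with MACS2 on TAIR10, per the submitters' processing notes; versions, settings and whether duplicates were pooled are not given in the sources used here. The authors deposited, per the file headers, the pileup as a coverage signal at the summit on an unstated scale, −log10 p and q-values, and fold enrichment as a linear ratio to the local background. Positions were 1-based. Depth is unknown, and the number of peaks in a list moves with it.

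Peaks on the 5 nuclear chromosomes were kept, leaving out 78 organelle peaks. Summits were given to the nearest of 27444 protein-coding genes of the RefSeq table of assembly TAIR10.1, within 2000 bp, and tied genes all counted. The table was used for names, neighbours and distances, and has no strand. Peaks of different lists sharing at least 1 bp were merged. The code, in Python 3.11.15 with pandas 2.3.3, was tested on made-up peaks. With 1 list per protein there is no test, and shares of all genes serve as the background. The genes and lists were chosen with earlier results of these data known. All 10 genes are named, and of the wider list those in at least 4 lists, those listed for their role after their values were seen, and the 5 genes most like BRI1. Alternatives were a limit of 1000 bp, every gene in reach, any base of the peak, stricter lists, lists of equal length, other overlaps and ranking by −log10 q. The planned motif search was not run, since no sequence was used here.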

Additional observations from a re-analysis of the deposited data

How the results depend on the processing

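No paired analysis was possible because each protein had 1 list. The stricter lists, peaks at or above the median −log10 q, left 2 genes with a REV peak in place of 4 and none with an ATHB8 peak (0 in place of 1). It also left 2 REV, 6 PHV and 0 ATHB8 peaks at the 10 genes, in place of 4, 11 and 1, and 4 REV, 11 PHB and 0 ATHB8 genes of the 48, in place of 8, 17 and 3. Sites of 2 or more proteins then numbered 6 in place of 11, and of 3 or more 5 in place of 8. Lists of equal length (2790 peaks) likewise left 2 genes with REV (2 peaks) and 0 with ATHB8 (0 peaks), 9 ICU4 peaks in place of 16, 10 TPL peaks in place of 20 and 5 sites of 3 or more proteins. Shorter lists hold fewer peaks by construction. A limit of 1000 bp removed the ATHB8 peak (0) and the outer BRI1 site, so that 3 genes had a REV and 9 an ICU4 peak. The share of HD-ZIPIII peaks with TPL was 68.2% by summits within 100 bp and 0% when 50% of both peaks had to overlap, the TPL peaks being wider. Ranked by −log10 q, the median place was 93.1% in the TPL list, 86.0% in the ICU4 list, 72.1% in the PHV list and 0.828% in the ATHB8 list, and the cause was not tested. Of the other recomputed counts and medians, 54 stayed within 1.5 times the reported count or within its interval. Among these were the genes with an ICU4 or a TPL peak, 10 each in the full lists. The stricter lists left 8 with ICU4 and 9 with TPL, and lists of equal length left 7 with each. Genes with PHB numbered 6 in the stricter lists and stayed 8 at equal length, where the PHB list, the shortest, is not cut. The shares of all genes were not recomputed at these settings. By −log10 q, 19 of the 38 places of single genes in a list were higher and 19 lower, with a median shift of 2.24 percentage points. For 27 of them the new place left a binomial interval set by the number of genes in the list. Such an interval, also used for the median places, is not an error of a rank and does not measure stability. The largest shift was 25.9 points, for CPD in the PHB list. In all, 2 places crossed the middle of their list, among them BZR1 in the TPL list (53.97% by −log10 q). Unknown depth limits what the numbers of peaks can show.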

Other observations

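A further 19 peaks lay within 2000 bp of 6 of the 10 genes but nearer to another gene, and are not counted above. Next to BRI1 they belonged to PLS (POLARIS, AT4G39403), which encodes a small peptide of hormone signalling. A PHB peak of 3.09, a PHV peak of 5.61, an ICU4 peak of 7.22 and a TPL peak of 11.2 had their summits between 18329824 and 18329925 on chromosome 4, from 993 to 1094 bp beyond BRI1. BRI1 thus lay between a site of 6 proteins on one side and a site of 4 on the other, and the ICU4 peaks of the sites ranked 158 and 250 of 8964. Next to BZR1, whose own peaks were weak, an ICU4 peak of 5.57 and a PHB peak of 3.54 had summits at 28189818 and 28189803 on chromosome 1, nearest to AT1G75090. A REV peak of 2.93, at 28189482, was also nearest to AT1G75090, 1407 bp from BZR1. A TPL peak of 8.02 lay 1303 bp from BKI1, nearest to AT5G42740. It was stronger in the TPL list than the peak inside BKI1, of 2.64. Which of the neighbouring genes a peak acts on was not tested.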
